A study of Mus musculus with 4 samples.

Results

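Ccl8-high, Saa3-low macrophages were picked out of single-cell RNA sequencing of pleural fluid, and they numbered 313 of the 13578 cells kept in the whole series. A droplet barcode was kept when it held at least 1000 UMIs (unique molecular identifiers, each standing for 1 captured RNA molecule) and at least 200 genes, with at most 10% of its UMIs from mitochondrially encoded (mt-) genes. A kept cell was taken as a member when it had at least 1 UMI of Csf1r, the receptor for macrophage colony-stimulating factor, and at least 20 UMIs of Ccl8 per 10000. It also had to hold under 100 UMIs of Saa3, under 5 of Lyve1 and under 3 of Cd163 and Ccl24 together per 10000, and at most 1 UMI of Vcan. The members were thus chosen on measured values, so the levels of those 7 genes describe the choice and support nothing. The 8688 other cells with Csf1r served as the comparison within each library.

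The cells came from C57BL/6 mice with malignant pleural effusions of LLC, the Lewis lung carcinoma line. Agents were given into the pleural cavity on day 11 and fluid was taken on day 13. The groups were LNP-cGAMP (1 µg), anti-PD-L1 antibody (30 µg), LNP-cGAMP plus anti-PD-L1 at those doses (the combination), and PBS. LNP-cGAMP is a lipid nanoparticle carrying cGAMP, the second messenger that switches on STING and, through it, interferon genes, and anti-PD-L1 blocks a ligand that holds back T cells. Each group was 1 library of cells pooled in equal parts from 3 mice, so no difference below has a replicate check, no test was run and no p-value is given. Intervals in brackets are exact 95% intervals and cover counting error only.

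Ccl8 belongs to a cluster of chemokine genes, with Ccl2, Ccl7 and Ccl12, whose products draw monocytes and other leukocytes out of the blood, largely through the receptor Ccr2, and mouse CCL8 is also known as a ligand of CCR8. Macrophages make these chemokines when they are stirred by interferon, by microbial products or by dying cells. Saa3 encodes serum amyloid A3, an acute-phase protein that marks a different, inflammatory macrophage state. Lyve1 and Cd163 mark macrophages that live in the body cavities, and Vcan (versican) marks monocytes that have recently arrived.

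The libraries held 68828158 (LNP-cGAMP), 87696440 (anti-PD-L1), 88855120 (combination) and 86269137 UMIs (PBS) over all barcodes. Members had a median of 23118, 41833, 19814 and 34686 UMIs in the same order, and other cells with Csf1r had 20477, 30175, 22151 and 32303. Libraries shared 8 to 19 kept barcodes per pair and no member barcode. The labels give no sex, but the cells did not all come from mice of 1 sex. Of other cells with Csf1r that carried either Xist or a Y-linked transcript (Ddx3y, Uty, Kdm5d or Eif2s3y) but not both, 0.0535% were Xist-only in LNP-cGAMP, 67.8% in anti-PD-L1, 76.0% in the combination and 0.195% in PBS. Comparisons of the combination or anti-PD-L1 with another library therefore cannot be told apart from differences between mice of different sex.

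Members carried the marks of macrophages. Every gene of an 18-gene macrophage list was detected in the members of every library, and the list made up a median of 2.59%, 3.26%, 2.46% and 3.57% of a member's UMIs in LNP-cGAMP, anti-PD-L1, the combination and PBS, against 2.30%, 2.34%, 2.34% and 2.79% in other cells with Csf1r. C1qa, a complement component made by macrophages, stood at 3602, 3861, 3900 and 4455 CPM (the summed UMIs of a gene per 1000000 UMIs of all genes) in members in that order. Adgre1, the gene of F4/80, stood at 286, 184, 293 and 173 CPM. Markers of tumour cells and mesothelium summed to at most 5.99 and 2.82 CPM in members. A list of 7 T cell genes summed to 16.5, 5.68, 55.7 and 7.75 CPM in members, with Cd4 at 0 in all 4 libraries. In other cells with Csf1r that list summed to 122, 30.0, 52.0 and 17.0 CPM, so it was not lower in members of the combination. B cell genes summed to at most 5.17 CPM in members, with Ms4a1 and Pax5 at 0. The 8 dendritic cell genes summed to 325, 849, 371 and 414 CPM in members, against 366, 707, 497 and 521 CPM in other cells with Csf1r. Their sum was thus higher in members of anti-PD-L1 and lower in members elsewhere. Zbtb46 and Xcr1 were at 0 in members of all 4 libraries, and Clec9a and Cd209a in all but anti-PD-L1. The 8 neutrophil genes summed to 349, 201, 545 and 318 CPM in members, lower than 2487, 1206, 1282 and 982 CPM in other cells with Csf1r. At least 3 UMIs of the neutrophil genes Retnlg, Csf3r and Cxcr2 were nevertheless found in 45 of 138, 0 of 13, 17 of 141 and 2 of 21 members. These were 32.6%, 0%, 12.1% and 9.52% of members, against 23.8%, 8.84%, 10.8% and 9.65% of other cells with Csf1r. By this count members were not lower in LNP-cGAMP and the combination. Doublets were not removed by a caller. Without cells holding markers of any other type, the member share was 4.90 times that of PBS in LNP-cGAMP and 4.87 times in the combination. The part of neutrophil RNA alone in the results was not tested.

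Ccl8-high, Saa3-low macrophages were several times more frequent in both libraries that had received LNP-cGAMP. They made up 5.97% (5.04 to 7.02) of cells with Csf1r in LNP-cGAMP, 138 of 2310, and 0.580% (0.309 to 0.990) in anti-PD-L1, 13 of 2241. In the combination they made up 5.37% (4.54 to 6.30), 141 of 2626, and in PBS 1.15% (0.714 to 1.75), 21 of 1824. The share in LNP-cGAMP was 5.19 times that in PBS (3.26 to 8.65), and the share in the combination was 4.66 times that in PBS (2.94 to 7.77). Anti-PD-L1 gave 0.504 times the PBS share, with an interval that reached past 1 (0.232 to 1.05). The combination over LNP-cGAMP gave 0.899 (0.706 to 1.14), an interval that spans 1, and the combination over anti-PD-L1 gave 9.26 (5.24 to 17.8).

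The share rested on several conditions that moved in different ways. Ccl8 of at least 20 per 10000 was found in 16.6%, 5.58%, 18.1% and 9.10% of cells with Csf1r in LNP-cGAMP, anti-PD-L1, the combination and PBS, a narrower spread than that of the members. In T cells, which should lack Ccl8, that level was reached by 0.995%, 0%, 0.699% and 0%. Members made up 36.0% (31.2 to 41.1) of the Ccl8-rich cells with Csf1r in LNP-cGAMP, and for anti-PD-L1 the share was 10.4% (5.65 to 17.1). It was 29.7% (25.7 to 34.1) in the combination and 12.7% (8.0 to 18.7) in PBS. What kept the rest out differed between libraries. Vcan above its limit was the most frequent in LNP-cGAMP and the combination, found in 206 of 383 (53.8%) such cells in LNP-cGAMP, 93 of 125 (74.4%) in anti-PD-L1, 262 of 474 (55.3%) in the combination and 84 of 166 (50.6%) in PBS. Lyve1 or Cd163 and Ccl24 above their limits were found in 39 (10.2%) in LNP-cGAMP, 94 (75.2%) in anti-PD-L1, 124 (26.2%) in the combination and 124 (74.7%) in PBS. Saa3 at or above 100 was found in 12.8% of them in LNP-cGAMP and 17.1% in the combination, and in 0% in anti-PD-L1 and in PBS. Among all cells with Csf1r, these cavity macrophage marks were found in 7.06%, 33.7%, 20.5% and 47.8% in LNP-cGAMP, anti-PD-L1, the combination and PBS. They were thus more frequent among Ccl8-rich cells than among all cells with Csf1r in every library. Most Ccl8-rich cells lacked them in LNP-cGAMP and the combination, where fewer cells with Csf1r had them, and most had them in anti-PD-L1 and PBS.

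In the combination, the members that could be called by Xist and Y-linked transcripts were mostly Xist-only. Xist-only members numbered 0, 5, 93 and 0 in LNP-cGAMP, anti-PD-L1, the combination and PBS, and Y-only members numbered 119, 5, 3 and 17. The other 19, 3, 45 and 4 members held both kinds of transcript or neither and had no call. Within the combination, members were 93 of 1520 Xist-only cells with Csf1r, 6.12% (4.97 to 7.44), and 3 of 454 Y-only cells, 0.661% (0.136 to 1.92), a ratio of 9.26 (3.07 to 45.7). Within Y-only cells alone, the share was 5.99% in LNP-cGAMP, 0.795% in anti-PD-L1, 0.661% in the combination and 1.10% in PBS. The 4.66-fold excess of the combination over PBS thus became 0.603 when Y-only cells were compared with Y-only cells, on 3 and 17 members, whereas LNP-cGAMP over PBS remained at 5.46.

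In the combination, Xist-only and Y-only cells differed more in Saa3 than in Ccl8. Ccl8 of at least 20 per 10000 was found in 19.5% of Xist-only and 13.2% of Y-only cells with Csf1r in that library. Saa3 of at least 100 per 10000 was found in 59 of 1520 Xist-only cells, 3.88% (2.97 to 4.98), and in 289 of 454 Y-only cells, 63.7% (59.0 to 68.1). The summed Saa3 level was 1576 CPM in Xist-only cells and 20262 CPM in Y-only cells, while Ccl12 stood at 639 and 146 CPM, Lyve1 at 411 and 118 CPM, and Isg15 at 404 and 118 CPM in the same order. Of the 60 Y-only cells rich in Ccl8, 43 were above the Saa3 limit. In LNP-cGAMP, whose called cells were nearly all Y-only, Saa3 of at least 100 was found in 22.3% of Y-only cells. Since the library pooled 3 mice, the split by Xist also splits the mice, and sex and the response of single mice cannot be told apart.

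**Figure D1:**
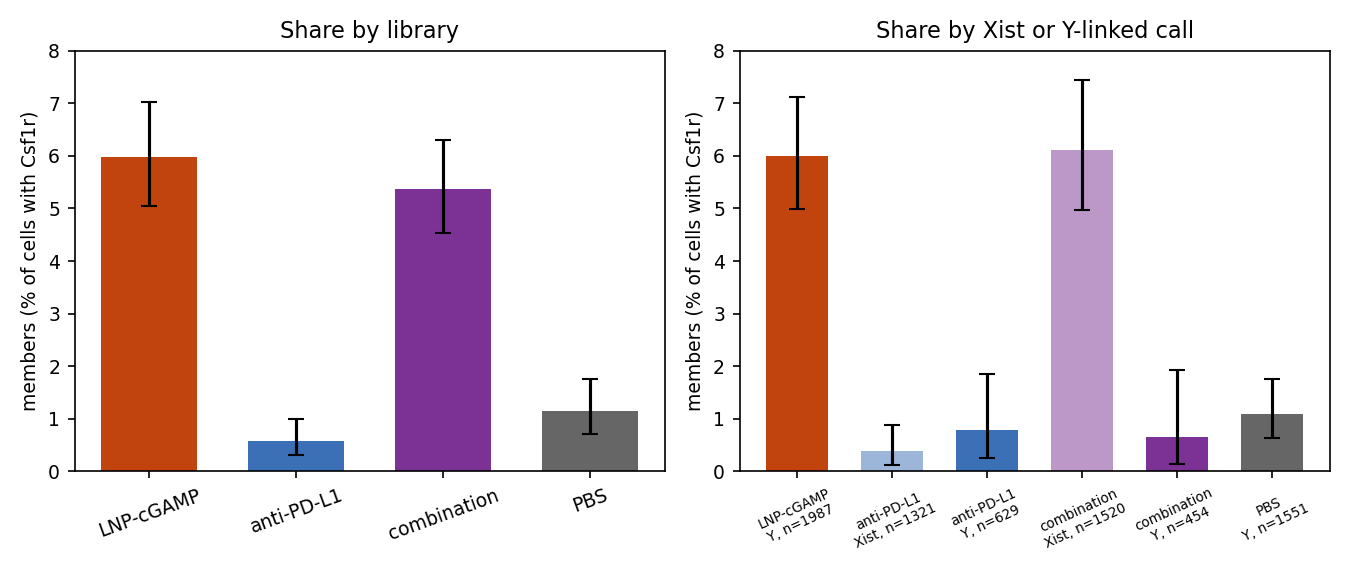
Members as a percentage of cells with Csf1r, by library (left) and by Xist-only or Y-only call within a library (right, n is the number of cells with Csf1r, and calls with under 50 cells are not drawn). Bars are shares and whiskers exact 95% binomial intervals. LNP-cGAMP (5.97%) and the combination (5.37%) stand above anti-PD-L1 (0.580%) and PBS (1.15%), and in the combination the Xist-only bar (6.12%) stands above the Y-only bar (0.661%).

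Ccl8 itself, the gene that defined the members, was spread widely among them. A member held 20.4 to 369 UMIs of Ccl8 per 10000 with a median of 73.1 in LNP-cGAMP, 21.0 to 288 with a median of 26.5 in anti-PD-L1, 20.8 to 432 with a median of 64.2 in the combination, and 22.6 to 112 with a median of 37.8 in PBS. The typical member was thus well above the minimum in the libraries with LNP-cGAMP and close to it in anti-PD-L1. Summed over members, Ccl8 stood at 9710, 3834, 8715 and 4537 CPM, and in barcodes of 10 to 100 UMIs, which hold free RNA, at 1611, 564, 1718 and 949 CPM. Saa3 in those near-empty barcodes stood at 5457, 1031, 3592 and 1046 CPM, above the 2024, 870, 1795 and 283 CPM of members. The median member held 7.40, 0.240, 4.33 and 0.294 UMIs of Saa3 per 10000, far under the limit of 100.

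**Figure D2:**
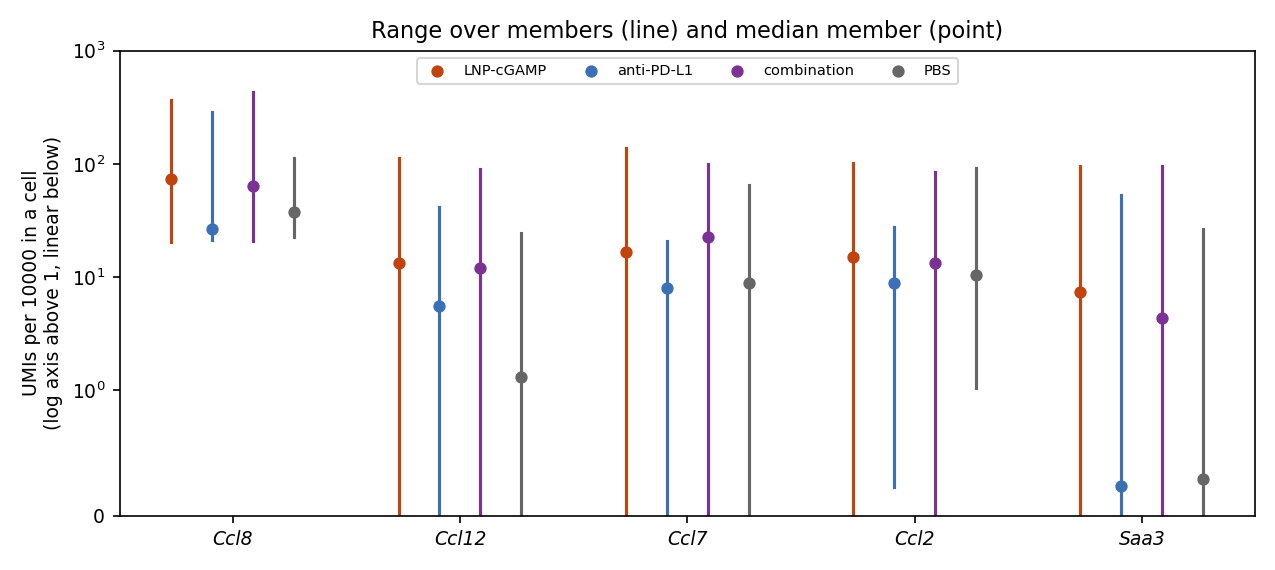
UMIs per 10000 in single members, by gene and library, with a line from the lowest to the highest member and a point at the median. Ccl8 and Saa3 were used to choose the members. The Ccl8 median is highest in LNP-cGAMP (73.1) and lowest in anti-PD-L1 (26.5), and the ranges of all 4 libraries overlap for each gene.

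The 4 genes lie on the plus strand of chromosome 11. In the GRCm38 assembly Ccl2 spans 82035571 to 82037453, Ccl7 82045712 to 82047525, Ccl12 82101845 to 82103400 and Ccl8 82115185 to 82116799, a stretch of 81.2 kb with 11.8 kb between Ccl12 and Ccl8. Because Ccl8 defines the members and Ccl12 is the marker gene nearest to it, the 250 bases before their start sites are given from RefSeq for GRCm38.p6, plus strand, at chr11:82114935-82115184 for Ccl8 and chr11:82101595-82101844 for Ccl12. Capitals mark the TATAAA box.
Ccl8: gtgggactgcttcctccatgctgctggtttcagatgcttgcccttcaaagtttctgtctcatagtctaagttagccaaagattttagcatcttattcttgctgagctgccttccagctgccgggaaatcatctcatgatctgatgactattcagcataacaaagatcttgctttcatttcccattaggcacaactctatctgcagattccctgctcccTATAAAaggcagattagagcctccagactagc
Ccl12: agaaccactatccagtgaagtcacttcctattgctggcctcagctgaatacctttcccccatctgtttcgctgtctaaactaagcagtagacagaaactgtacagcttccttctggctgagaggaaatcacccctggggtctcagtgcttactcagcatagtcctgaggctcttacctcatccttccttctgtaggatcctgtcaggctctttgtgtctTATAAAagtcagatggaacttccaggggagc
Both promoters hold TATAAA, 32 and 31 bases before the start of Ccl8 and Ccl12, and 12.4% of 32851 RefSeq promoter windows of that length hold it on either strand. The interferon response element core (GAAA, any 2 bases, GAAA), the NF-kB letters (GGG, any 2 bases, TTTCC) and the AP-1 letters TGANTCA were searched on both strands and had no match in either window. They are found in 2.98%, 1.41% and 6.75% of all windows.

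Against other cells with Csf1r of the same library, members were set apart by few genes in all 4 libraries at once. Of 3573 genes entered, 7 were at least 1.5-fold higher in members of every library (0.196%) and 38 at least 1.5-fold lower (1.06%). The 38 included Vcan, Cd163 and Ccl24, which the rule itself kept low in members. The 7 were Ccl8, on which members were chosen, and Ms4a7, Fabp5, Slc40a1, Nrp2, Gas6 and Tmem8. The last 4 each missed 1.5-fold in anti-PD-L1 or PBS under 1 or 2 of the alternatives tried. Cells picked by expression also differ in genes that vary with those of the rule, so all these values describe the choice. The ratios below are log2 of CPM + 10 over CPM + 10, which draws the ratio of low genes towards 0.

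Ms4a7, a tetraspan membrane protein of macrophages, stood at 282, 142, 324 and 128 CPM in members of LNP-cGAMP, anti-PD-L1, the combination and PBS, against 118, 21.2, 72.2 and 42.2 CPM in other cells with Csf1r. Its log2 ratio was 1.19, 2.29, 2.02 and 1.40, and it remained past 1.5-fold under each alternative that gave a value. After each cell had been thinned to 5000 UMIs, 72.4%, 46.2%, 72.2% and 57.1% of members held a UMI of Ms4a7, against 30.8%, 8.78%, 24.5% and 14.8% of other cells with Csf1r. Before thinning the shares were 92.8%, 69.2%, 85.1% and 85.7% of members and 52.9%, 25.9%, 47.8% and 38.2% of the others. Among T cells, which should lack it and had a median of 14050, 7398, 16162 and 5728 UMIs, the thinned shares were 1.64%, 0%, 0% and 0%, so the shares in both sets of cells with Csf1r were above that background.

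Fabp5, a carrier of fatty acids in the cytoplasm, stood at 1817, 604, 1520 and 593 CPM in members, against 544, 192, 350 and 222 CPM in other cells with Csf1r. After thinning, a UMI of Fabp5 was found in 86.6%, 30.8%, 85.0% and 57.1% of members. Among other cells with Csf1r the shares were 39.7%, 34.9%, 44.5% and 36.0%, so in anti-PD-L1 (4 of 13 members) the share was not higher in members. T cells held one in 35.5%, 24.7%, 36.1% and 17.5%. Slc40a1, ferroportin, which lets iron out of the cell, stood at 215, 15.2, 84.3 and 54.3 CPM in members, against 41.0, 4.86, 10.7 and 6.91 CPM. In anti-PD-L1 and PBS, 1 member gave 87.5% and 59.5% of the Slc40a1 UMIs, so the value there rests on that cell. Slc40a1 was found after thinning in 44.8% of members in LNP-cGAMP and 19.5% in the combination, against 8.97% and 3.14% of other cells with Csf1r and 2.73% and 0.820% of T cells. Before thinning it was found in 60.1% and 31.2% of members in these libraries. Ferroportin was thus carried by a portion of the members, larger in LNP-cGAMP than in the combination.

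Gas6, the bridge that ties dying cells to the receptors Axl and Mertk, stood at 57.1, 66.3, 27.9 and 47.8 CPM in members, against 18.8, 8.56, 13.2 and 25.5 CPM. Nrp2, a receptor for semaphorins and VEGF-C, stood at 62.0, 77.7, 69.5 and 80.1 CPM, against 28.9, 37.0, 35.2 and 44.6 CPM. Tmem8 stood at 152, 92.8, 146 and 87.9 CPM, against 84.9, 46.8, 83.1 and 53.2 CPM. Trem2, a lipid-sensing receptor, stood at 253, 248, 259 and 364 CPM, against 158, 159, 168 and 241 CPM, and was just short of 1.5-fold in PBS. Cxcl16, Slc37a2, Tspan3 and Wwp1 were higher in members of every library as well, by a log2 ratio of at least 0.54 in each.

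The chemokines next to Ccl8 were less evenly higher. Ccl12 stood at 2159, 820, 1676 and 516 CPM in members and 1513, 327, 616 and 453 CPM in other cells with Csf1r, past 1.5-fold in anti-PD-L1 and the combination only. Ccl7 stood at 2432, 818, 2913 and 1255 CPM, against 1595, 529, 1048 and 872 CPM, past 1.5-fold in all but PBS. Ccl2 stood at 1946, 906, 1551 and 1504 CPM, against 1623, 781, 911 and 1078 CPM. Slamf7, a self-binding receptor of the SLAM family, stood at 225, 37.9, 160 and 28.4 CPM, against 98.3, 23.2, 44.4 and 16.0 CPM, past 1.5-fold in the libraries with LNP-cGAMP. Of the 5 markers given with these cells, Ccl8 and Ms4a7 were thus higher in all 4 libraries, while Ccl7, Ccl12 and Slamf7 depended on the library. After thinning, a UMI of Slamf7 was found in 61.9%, 15.4%, 56.4% and 9.52% of members, against 34.0%, 11.0%, 19.6% and 6.99% of other cells with Csf1r. T cells, which can express Slamf7 themselves and so give no background for it, held one in 25.7%, 15.1%, 19.7% and 7.50%. Before thinning, members' shares were 94.9%, 61.5%, 85.1% and 33.3%.

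The 38 genes lower in members of every library were of several kinds, among them monocyte genes, the neutrophil genes S100a8, S100a9 and Retnlg, the lymphocyte genes Nkg7 and Gzmb, the matrix genes Dcn, Sparc and Mgp, and the cell-cycle gene Ube2c. Chil3, the chitinase-like protein Ym1, stood at 174, 167, 206 and 68.5 CPM in members, against 1180, 1391, 830 and 718 CPM in other cells with Csf1r. Alox15, a lipoxygenase of resident cavity macrophages, stood at 1.16, 1.89, 6.35 and 2.58 CPM, against 36.4, 232, 145 and 52.4 CPM. Fn1, fibronectin, stood at 5.50, 123, 18.7 and 93.0 CPM, against 90.3, 435, 278 and 609 CPM, with 80% of the anti-PD-L1 members' UMIs in 1 cell. Thbs1, Hp, Lcn2 and Ifitm1 were lower in every library, with log2 ratios of -1.49 or below. Mgp, matrix Gla protein, had ratios of -1.89, -2.21, -2.67 and -2.56, but of 0.26, 0.04, 0.08 and 0.23 once cells with markers of other types were left out. Of 13 monocyte genes, 5 were lower in all 4 libraries (Chil3, Hp, Thbs1, Fn1, Mcemp1) and 0 higher. Of 10 genes of resident cavity macrophages, 2 were lower in all 4 (Alox15, Prg4) and 1 higher (Gas6). Of 12 acute-phase and antimicrobial genes, 6 were lower in all 4 (Lcn2, Hp, Slpi, S100a8, S100a9, Chil3). Of 41 type I interferon response genes, 0 were higher in all 4 and Slfn4 was lower, with a median log2 ratio of -0.05, -0.11, 0.34 and -0.16 beside -0.01, -0.02, 0.05 and -0.03 for all genes.

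**Figure D3:**
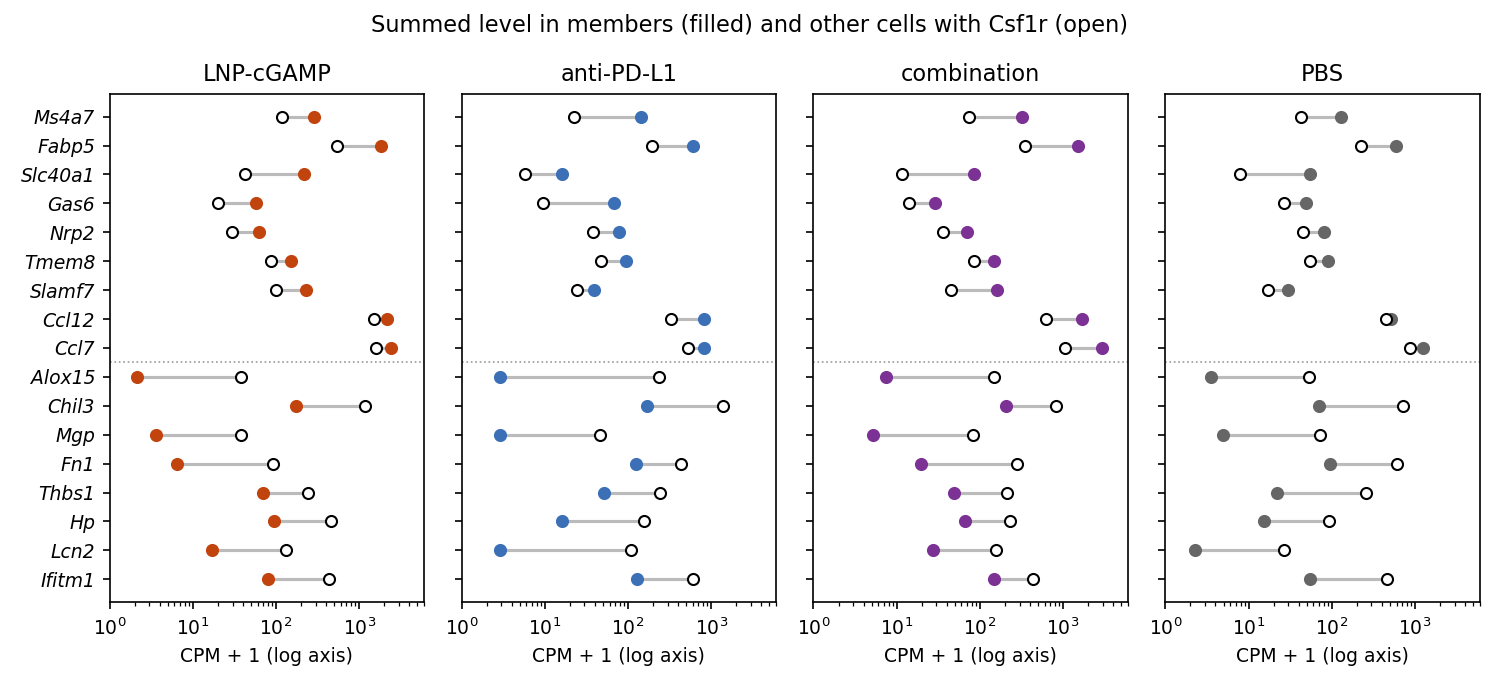
Summed level (CPM + 1, log axis) in members (filled) and other cells with Csf1r (open) for named genes, a panel per library. Above the dotted line are genes named as high in members or given as their markers, and below it genes named as low. Filled points lie to the right for Ms4a7 in every panel (282, 142, 324 and 128 CPM) and to the left for Chil3 (174, 167, 206 and 68.5 CPM).

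Each condition of the rule was set against the cells that failed only that condition. Cells that failed only the Vcan limit numbered 170, 18, 155 and 21, more than the members in all but PBS. In LNP-cGAMP 26 of 3573 genes were at least 1.5-fold higher in members than in these cells and 25 lower, and in the combination 24 and 12. With 18 and 21 such cells in anti-PD-L1 and PBS, the numbers were 148 and 128, and 109 and 80. Fabp5, for example, stood at 1817, 604, 1520 and 593 CPM in members of LNP-cGAMP, anti-PD-L1, the combination and PBS, against 1607, 951, 1244 and 1031 CPM in the cells with more Vcan, so it was lower in members of anti-PD-L1 and PBS. In those cells Tmem8 stood at 162, 74.6, 163 and 96.0 CPM, above members in all but anti-PD-L1. Ms4a7 stood at 231, 81.4, 213 and 152 CPM in them, and Nrp2 at 47.9, 57.0, 66.1 and 90.9 CPM. Gas6 stood at 34.1, 24.4, 26.6 and 58.2 CPM. Each of Ms4a7, Nrp2 and Gas6 was above members in PBS only. Slc40a1, at 79.7, 2.71, 38.9 and 39.8 CPM, was below members in all 4 libraries. Cells that failed only the Ccl8 minimum numbered 650, 349, 593 and 361, and 72, 168, 93 and 155 genes were higher in members than in them, 161, 225, 178 and 203 lower. Against these cells 15 genes were higher in members of all 4 libraries, counting Ccl8 itself, by which the cells were split. The others included Ms4a7, Fabp5, Gas6, Nrp2, Tmem8, Pf4, Folr2, Cbr2, Cd63 and Ch25h. The 49 lower genes included Il1b, S100a8 and the class II genes H2-Aa, H2-Ab1, H2-Eb1 and Cd74. Also lower were the lymphocyte genes Nkg7 and Gzmb and the neutrophil genes S100a9 and Retnlg. Folr2, the folate receptor of tissue macrophages, and Pf4, platelet factor 4, were thus higher in members than in cells that failed only the Ccl8 minimum. Those cells also held more lymphocyte and neutrophil transcripts, and the part of other cell types in these differences was not tested. Cells that failed only the Saa3 limit numbered 22 in LNP-cGAMP and 23 in the combination and stood further off, with 384 and 223 genes higher in members and 173 and 142 lower. Ms4a7 stood at 282 and 324 CPM in members, against 144 and 101 CPM in the cells with more Saa3, and Ccl5 at 748 and 409 CPM, against 2808 and 1693 CPM. Tmem8 stood at 152 and 146 CPM in members, against 161 and 180 CPM in the cells with more Saa3.

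Across bands of Ccl8, Fabp5 and Slc40a1 were higher at the top than at the bottom in both libraries, with uneven values near the minimum of 20, where bands held few cells. In LNP-cGAMP, Fabp5 stood at 487 CPM in the 552 cells with under 5 UMIs of Ccl8 per 10000 that met the other conditions, 1016 CPM at 15 to 20, 504 CPM at 20 to 25 and 1854 CPM at 160 and above. Slc40a1 stood at 66, 114, 150 and 242 CPM in these bands, and Ms4a7 at 175, 270, 243 and 288 CPM. In the combination Fabp5 stood at 332, 1258, 1140 and 2233 CPM, Slc40a1 at 16.2, 15.1, 71.3 and 85.5 CPM, and Ms4a7 at 116, 174, 232 and 254 CPM. Just outside the minimum were 18 and 14 cells and just inside it 11 and 14 in LNP-cGAMP and the combination. Ccl12 moved little over the bands in LNP-cGAMP, at 1770, 1151, 1864 and 2031 CPM, and more in the combination, at 901, 1243, 1661 and 2261 CPM.

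**Figure D4:**
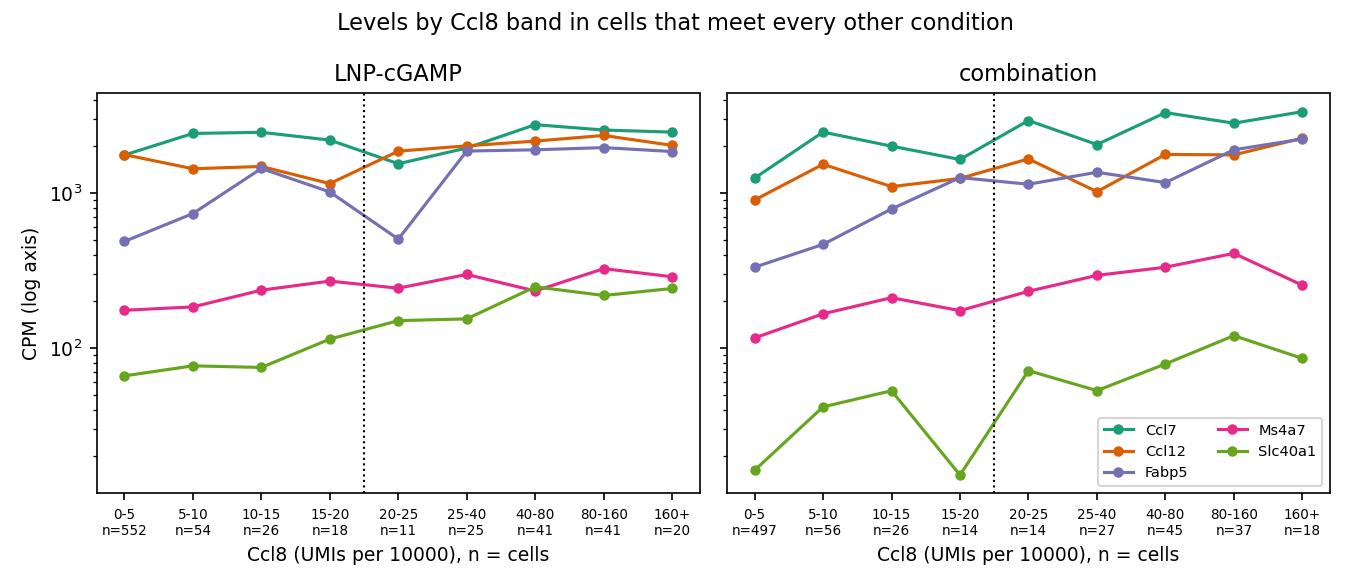
Summed CPM (log axis) of 5 genes by band of Ccl8 per 10000 UMIs in cells that met every other condition, for LNP-cGAMP and the combination, with the number of cells under each band. The dotted line marks the minimum of 20. Fabp5 climbs from 487 to 1854 CPM over the bands of LNP-cGAMP and from 332 to 2233 CPM in the combination, with uneven values in the small bands next to the line.

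Between treatments, members of the libraries with LNP-cGAMP carried more transcripts of interferon-response, MHC class I, MS4A and monocyte genes than those of PBS. Other cells with Csf1r did so too: the numbers higher in LNP-cGAMP over PBS were 36 of 38 for the type I interferon response (median 1.11), 12 of 17 MHC class I genes (0.73), 7 of 7 MS4A genes (0.98) and 9 of 13 monocyte genes (0.97). Of all 3458 genes, 361 were higher and 221 lower in those other cells. In members, 524 of 3458 genes were at least 1.5-fold higher (15.2%) and 332 lower (9.60%) in LNP-cGAMP over PBS. In anti-PD-L1 over PBS the shares were 6.02% (208 genes) and 4.80% (166 genes), and in the combination over PBS 12.2% and 6.65%. In the combination over LNP-cGAMP they were 1.45% and 1.36%, and in the combination over anti-PD-L1 10.8% and 7.23%. The median of all genes was 0.07, 0.02, 0.08, 0.01 and 0.06 (log2) in the 5 comparisons in that order. Comparisons with PBS rest on 21 PBS members and those with anti-PD-L1 on 13. The 5 comparisons are not independent, since each library serves in more than 1 of them.

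The interferon-response genes were higher in members after LNP-cGAMP with or without the antibody. For LNP-cGAMP over PBS, 36 of 38 type I interferon response genes were higher and 0 lower, with a median log2 ratio of 1.33, and 36 were higher and 0 lower in the combination over PBS, with a median of 1.05. In anti-PD-L1 over PBS 14 were higher and 1, Ifit3, lower, with a median of 0.34. Isg15, a ubiquitin-like protein, stood at 723, 260, 506 and 164 CPM in members of LNP-cGAMP, anti-PD-L1, the combination and PBS. Irf7, the transcription factor that amplifies interferon production, stood at 1014, 386, 773 and 202 CPM, a fold of 5.03 (4.28 to 5.95) in LNP-cGAMP over PBS and 3.84 (3.26 to 4.54) in the combination over PBS. Both genes were highest in LNP-cGAMP, next in the combination and lowest in PBS. Interferon-beta itself, Ifnb1, had 0 UMIs in the members of all 4 libraries, and Tmem173, the gene of STING, stood at 163, 92.8, 159 and 77.5 CPM.

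Set against LNP-cGAMP alone, fewer of these genes were lower in members of the combination than in its other cells. In the combination over LNP-cGAMP, 0 of 38 were higher and 2 lower in members (Oas1a and Slfn4), with a median of -0.17, and in other cells with Csf1r 0 were higher and 16 lower, with a median of -0.55. In the combination over PBS the median was 1.05 in members and 0.55 in the others. Of the members of the combination with a call 96.9% were Xist-only, against 76.0% of its other cells with Csf1r, and this difference cannot be told apart from the make-up of the pool. Of 16 genes of the interferon-gamma response, 9 were higher and 0 lower in each of LNP-cGAMP, anti-PD-L1 and the combination over PBS, with medians of 0.88, 0.69 and 0.84. Gbp2b, a guanylate-binding protein, stood at 90.7, 267, 182 and 89.2 CPM, so it was high with the antibody and not with LNP-cGAMP alone, and Gbp4 stood at 240, 227, 299 and 91.8 CPM, high in all treated libraries.

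The 2 classes of antigen presentation moved apart. Of 17 MHC class I genes, 13 were higher and 0 lower both in LNP-cGAMP and in the combination over PBS, with medians of 0.77 and 0.83, and 3 in anti-PD-L1 over PBS, with a median of 0.35. H2-K1, a classical class I heavy chain, stood at 5186, 2777, 5095 and 2031 CPM, and B2m, its light chain, at 4197, 2916, 4550 and 2552 CPM. H2-Q7 stood at 619, 161, 616 and 68.5 CPM and H2-Q6 at 230, 22.7, 182 and 3.88 CPM, but these near-identical copies share reads, so how the counts divide among them is not certain. Class II behaved otherwise, and of its 6 genes 4 were lower in LNP-cGAMP over PBS (median -0.93), all 6 were higher in anti-PD-L1 over PBS (1.25), 0 were past 1.5-fold in the combination over PBS (-0.17), and 4 were higher in the combination over LNP-cGAMP (0.70). Cd74, the class II invariant chain, stood at 612, 3651, 974 and 1078 CPM and H2-Aa at 136, 925, 270 and 345 CPM. Members of anti-PD-L1 were thus the highest and those of LNP-cGAMP the lowest in class II, though 24.1% of the Cd74 UMIs in anti-PD-L1 came from 1 of 13 members and the Cd74 difference of LNP-cGAMP from PBS shrank to a log2 ratio of -0.53 without the highest PBS member. In Y-only cells alone the class II median of LNP-cGAMP over PBS was -0.28. In the combination over LNP-cGAMP the class II median stayed past 1.5-fold in 10 of 14 alternatives and was 0.03 after thinning, and Cd74 was at 0.46 without the highest member. In anti-PD-L1 over PBS the class II median was 0.54 after thinning.

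Some chemokine genes, and Ccr2, were higher in members with LNP-cGAMP. Beside Ccl7 and Ccl12, 3 of 9 other chemokine genes were higher in LNP-cGAMP and in the combination over PBS (Ccl5, Cxcl3, Cxcl10). Ccl8 was higher too, but members were chosen on it. Ccl6, an abundant macrophage chemokine, was lower in LNP-cGAMP over PBS, at 8162, 14790, 11918 and 15203 CPM in LNP-cGAMP, anti-PD-L1, the combination and PBS. Ccl12 had a fold of 4.19 (3.79 to 4.64) in LNP-cGAMP over PBS and 3.25 (2.93 to 3.61) in the combination over PBS, and Ccl7 had 1.94 (1.81 to 2.07) and 2.32 (2.17 to 2.48). Ccl2 had 1.29 (1.22 to 1.38) and 1.03 (0.966 to 1.10). Ccl5, which draws T cells and NK cells, stood at 748, 3.79, 409 and 5.17 CPM, and Cxcl3, which draws neutrophils, at 70.1, 1.89, 55.4 and 2.58 CPM. A UMI of Ccl5 was found in 63.0%, 15.4%, 41.8% and 19.0% of members, and after thinning in 32.1%, 7.69%, 27.8% and 0% of members, 38.4%, 3.72%, 21.8% and 3.92% of other cells with Csf1r and 86.3%, 84.9%, 86.9% and 55.0% of T cells, which make it themselves. Ccl5 thus went with LNP-cGAMP in members and in the other cells alike. Ccr2 stood at 251, 9.47, 213 and 36.2 CPM, a fold of 6.95 (4.77 to 10.5) in LNP-cGAMP over PBS. In anti-PD-L1 the Ccr2 value came from 5 UMIs in 3 of 13 members. Ccl3 and Ccl4, chemokines of activated macrophages, differed little between LNP-cGAMP, the combination and PBS, with Ccl4 at 592, 294, 620 and 601 CPM.

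Monocyte genes were higher in these members, although the monocyte list summed lower in members than in other cells with Csf1r of every library. Of 13, LNP-cGAMP over PBS had 8 higher and 2 lower, with a median of 1.23, and 7 higher and 2 lower in the combination over PBS, with a median of 0.90. Ly6c2, the Ly6C of inflammatory monocytes, stood at 825, 150, 887 and 37.5 CPM. After thinning it was found in 81.3%, 30.8%, 82.0% and 4.76% of members, against 82.8%, 54.5%, 76.6% and 28.3% of other cells with Csf1r. By this share Ly6c2 was not lower in members of the combination. Ly6c1, a near copy of Ly6c2, stood at 73.0, 9.47, 81.8 and 0 CPM, and reads may be split between them. F13a1, coagulation factor XIII, went the other way at 74.5, 318, 112 and 486 CPM, as did Fn1. All 7 MS4A genes were higher in LNP-cGAMP over PBS and 6 in the combination over PBS. Ms4a7 had a fold of 2.20 (1.79 to 2.74) and 2.54 (2.06 to 3.15), and Ms4a4c stood at 817, 157, 693 and 116 CPM. When every cell was thinned to 5000 UMIs and members were chosen again, the log2 ratio of Ms4a7 was 0.25 in LNP-cGAMP over PBS and 0.00 in the combination over PBS, in place of 1.08 and 1.28. That choice gave 178, 181 and 40 members in LNP-cGAMP, the combination and PBS, in place of 138, 141 and 21. The difference was thus not kept there, but depth and membership changed together and their parts were not tested. Slamf7 had a fold of 7.93 (5.20 to 12.7) in LNP-cGAMP over PBS and 5.64 (3.68 to 9.10) in the combination over PBS, and 1.33 (0.690 to 2.56) in anti-PD-L1 over PBS.

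Other genes led these lists by size. Spp1, osteopontin, stood at 1272, 49.3, 837 and 73.7 CPM in LNP-cGAMP, anti-PD-L1, the combination and PBS, a fold of 17.3 (13.3 to 22.8) in LNP-cGAMP over PBS. Its log2 ratio in the combination over anti-PD-L1 was 3.84 and ranged from 0.70 to 4.06 over 14 alternatives. Lst1 stood at 595, 106, 620 and 96.9 CPM and Nrg4, a growth factor of the neuregulin family, at 82.0, 5.68, 79.0 and 7.75 CPM. Lyz2, lysozyme, was low with LNP-cGAMP, at 1498, 6561, 1596 and 8826 CPM, as was Apoe, apolipoprotein E, at 2085, 5638, 1779 and 5850 CPM. Arg1, arginase, stood at 1660, 3730, 2118 and 4968 CPM, and Ltc4s, leukotriene C4 synthase, at 189, 835, 241 and 804 CPM. Lyz2, Apoe, Arg1 and Ltc4s each split the libraries by LNP-cGAMP, with both libraries that had it under both that had not. The split was not particular to members for Lyz2 and Arg1. In cells with Csf1r and Vcan above 1 UMI, Lyz2 stood at 2601, 6044, 3871 and 7884 CPM and Arg1 at 1644, 4117, 3362 and 4605 CPM. Spp1 stood at 890, 162, 457 and 200 CPM in those cells. Apoe, at 2034, 1267, 1074 and 2437 CPM, did not split the libraries so there. Alox5 stood at 3.19, 26.5, 3.17 and 67.2 CPM and Wfdc21 at 8.69, 47.4, 12.7 and 194 CPM, with 49.3% of the Wfdc21 UMIs of PBS in 1 member.

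Cell-cycle and mitochondrial transcripts were lower in these members as well. Of 10 proliferation genes, 9 were lower and 0 higher in LNP-cGAMP over PBS, with a median of -1.36, and 7 lower and 0 higher in the combination over PBS, with a median of -1.06. Stmn1, which loosens microtubules, stood at 7.53, 58.7, 42.0 and 167 CPM, with 83.9% of the anti-PD-L1 UMIs in 1 member. Of 11 mt- genes, 10 were lower and 0 higher in both of these comparisons, with medians of -2.62 and -1.53, and 9 were higher and 0 lower in the combination over LNP-cGAMP, with a median of 1.10. The median member had 0.666%, 3.24%, 1.05% and 3.69% of its UMIs from mt- genes, and other cells with Csf1r had 1.04%, 3.16%, 2.16% and 3.23%. The mt- share is a mark of RNA quality as well as of the cell, it differed between the same libraries as the gene groups above, and its part in them was not tested. Housekeeping genes moved less, and for LNP-cGAMP over PBS 1 of 11 was higher and 2 were lower, with a median of -0.24.

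**Figure D5:**
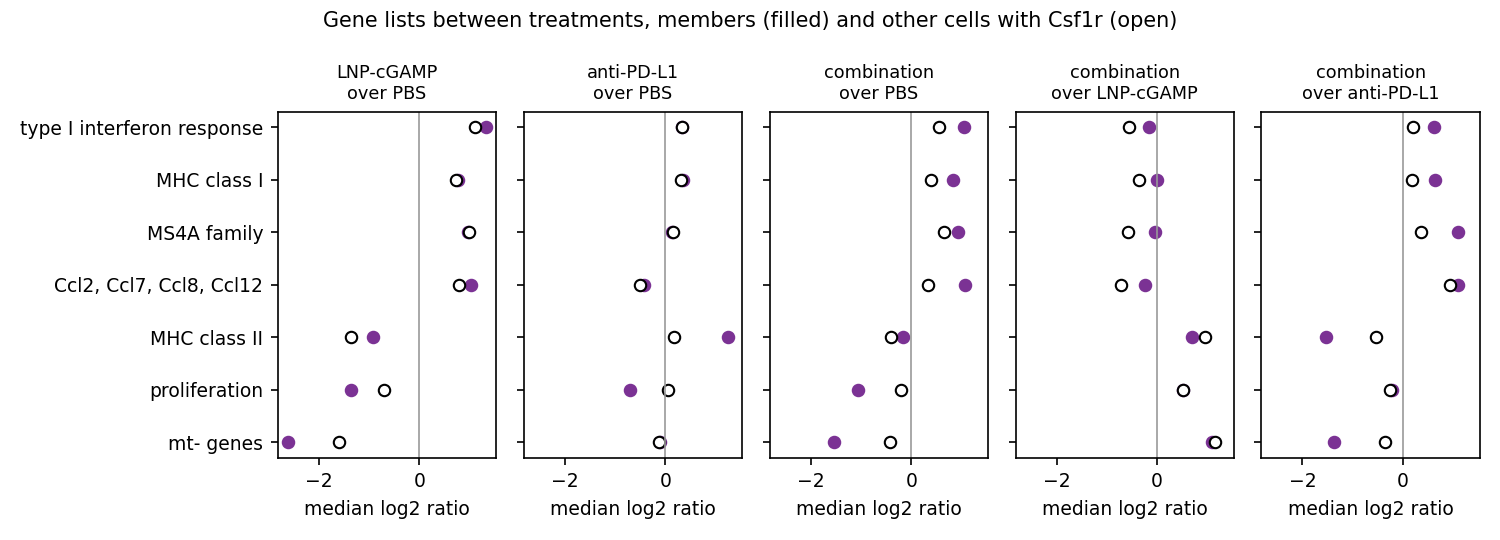
Median log2 ratio of 7 gene lists in 5 comparisons between treatments, in members (filled) and other cells with Csf1r (open), on a common axis. The list of Ccl2, Ccl7, Ccl8 and Ccl12 includes Ccl8, on which members were chosen. In LNP-cGAMP over PBS members lie at 1.33 for the type I interferon response and -2.62 for mt- genes. In the combination over LNP-cGAMP members lie at -0.17 and other cells at -0.55 for the type I interferon response.

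The genes that went with the antibody were fewer and rested on 13 members. By the smaller of the log2 ratios in anti-PD-L1 over PBS and in the combination over LNP-cGAMP, the highest were Gdf3, Slamf9, H2-Eb1, Ckb, H2-Aa, Gbp2b, Upp1 and Ifitm1. After thinning, H2-Eb1 in anti-PD-L1 over PBS was at -0.37 and H2-Aa in the combination over LNP-cGAMP at -0.03. Slamf9 stood at 19.7, 171, 57.5 and 47.8 CPM in LNP-cGAMP, anti-PD-L1, the combination and PBS, and Gdf3, a growth factor of the TGF-beta family, at 8.98, 75.8, 62.8 and 15.5 CPM. Upp1, uridine phosphorylase, stood at 44.3, 157, 89.9 and 5.17 CPM. In anti-PD-L1 1 member gave 65% of the Gdf3 UMIs, 42.9% of the Ckb UMIs and 50% of the Ifitm1 UMIs. Without the highest member, the log2 ratios of anti-PD-L1 over PBS were 0.32 for Ckb and 0.29 for Ifitm1, in place of 0.99 and 1.11. The lowest were Slc40a1, Ppbp, Ptgr1, Clec4n and Gpnmb. Slc40a1 had a fold of 0.393 (0.338 to 0.455) in the combination over LNP-cGAMP, measured on 141 and 138 members, and Clec4n, the dectin-2 receptor, stood at 254, 54.9, 75.5 and 107 CPM. Gpnmb, a membrane glycoprotein of lysosome-rich macrophages, stood at 114, 5.68, 36.3 and 18.1 CPM. Without the highest member, none of these 5 was past 1.5-fold in anti-PD-L1 over PBS, with log2 ratios of -0.41 for Slc40a1, 0.00 for Ppbp, 0.25 for Ptgr1, -0.09 for Clec4n and -0.51 for Gpnmb, and Ppbp was at -0.47 in the combination over LNP-cGAMP.

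Scavenger and cavity-macrophage genes were lower with LNP-cGAMP. Of 11 scavenger and efferocytosis genes, 6 were lower in LNP-cGAMP over PBS (median -0.62) with 1 higher, and 6 were lower in the combination over PBS (-0.61) with 0 higher. Mrc1, the mannose receptor, stood at 214, 504, 296 and 520 CPM and Stab1, a scavenger receptor of endothelium and macrophages, at 152, 305, 266 and 426 CPM. In cells with Csf1r and Vcan above 1 UMI, Mrc1 stood at 206, 358, 326 and 436 CPM, also lower in both libraries with LNP-cGAMP. Cd163 was also lower, but it was limited by the rule. Timd4, a receptor of long-lived cavity macrophages, had 0 UMIs in members of all 4 libraries, against 1.27, 4.65, 2.14 and 6.61 CPM in other cells with Csf1r. Of 14 lipid-handling genes, LNP-cGAMP over PBS had 4 higher and 5 lower, so that list moved in both directions. Fabp5 was the highest of them, with a fold of 3.06 (2.79 to 3.37) in LNP-cGAMP over PBS and 2.56 (2.33 to 2.83) in the combination over PBS. Cd36, which takes up fatty acids and oxidised lipid, stood at 248, 354, 199 and 433 CPM. Hmox1, heme oxygenase, stood at 4395, 3283, 4257 and 6754 CPM, and Cd274, the gene of PD-L1, at 256, 229, 250 and 127 CPM, higher in all treated libraries than in PBS.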

How the data were processed

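The deposited values were counts: UMIs of each gene in each barcode as whole numbers, 4 matrices, 1 per library, written by Cell Ranger 3.0.2 per the file headers. The submitters' processing notes name the mm10 build. The matrices were unfiltered, and the labels give the kit version in more than 1 way. Barcodes were kept and members chosen by the rule in the opening. Counts of genes that share a symbol were added.

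UMIs were summed per library over members and over other cells with Csf1r and scaled to CPM. Genes entered with at least 20 UMIs and 50 CPM in at least 1 sum, a ratio is log2 of CPM + 10 over CPM + 10, and a gene was counted at 1.5-fold or more. With 1 library per group no test was run. Intervals are exact (Poisson, conditional binomial, Clopper-Pearson) at 95%, and PCR and capture error are not in them. For shares with a UMI, cells were thinned to 5000 UMIs. T cells had at least 3 UMIs of Cd3e, Cd3g and Cd3d and no Csf1r. No doublet caller was run. Leaving out cells with at least 3 UMIs of other-type markers was an alternative, beside other limits of the rule, thinning, other pseudocounts and minimums, and leaving out cells.

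The members and gene lists were chosen with earlier results of these data known. Named genes were the markers, the list genes, the 12 highest and 8 lowest genes of members over other cells by their smallest log2 ratio in size over the 4 libraries, and the 8 highest and 5 lowest by the smaller ratio in size of LNP-cGAMP over PBS and the combination over anti-PD-L1. The antibody was ranked likewise over anti-PD-L1 over PBS and the combination over LNP-cGAMP, and for the combination over PBS the 5 highest and 3 lowest were taken. Genes of the rule, mt-, ribosomal, haemoglobin, Xist and Y-linked genes and predicted gene models were left out of these ranks. Ratios were checked on simulated counts. Python 3.11.15, numpy 2.4.6, scipy 1.17.1, pandas 2.3.3 and matplotlib 3.10.9 were used. Gene positions are from GENCODE M21.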

Additional observations from a re-analysis of the deposited data

Results flagged for a closer look

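The effect of LNP-cGAMP on 2 genes of members pointed in opposite directions with and without the antibody. Upp1 had a log2 ratio of 1.84 in LNP-cGAMP over PBS and -0.74 in the combination over anti-PD-L1, and Cxcl10 had 4.23 and -0.87. The effect of the antibody on Cxcl10 also pointed both ways, at -1.62 in the combination over LNP-cGAMP and 3.47 in anti-PD-L1 over PBS. These differences were not tested, since each group is 1 library. Cxcl10 stood at 250, 144, 74.4 and 3.88 CPM in LNP-cGAMP, anti-PD-L1, the combination and PBS, and 1 of the 13 anti-PD-L1 members gave 85.5% of its UMIs there. Without that member the combination over anti-PD-L1 gave 1.35. Upp1 in PBS came from 4 UMIs.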

How the results depend on the processing

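No paired analysis was possible because each treatment is 1 library and the labels tie no mice across groups. Over all alternatives 2660 single-gene values stayed alike, 522 moved and 12 reversed, 460 list medians stayed alike and 9 moved, and 164 shares and gene counts stayed alike and 42 moved. The excess of members in LNP-cGAMP over PBS ranged from 3.99 to 8.95-fold and that of the combination over PBS from 3.28 to 7.72-fold, apart from 0.603 in Y-only cells, where members were 0.661% of the combination. With a Ccl8 minimum of 10 the shares of LNP-cGAMP, the combination and PBS were 7.88%, 6.89% and 1.97%, and 105 genes were lower in anti-PD-L1 over PBS. With a minimum of 40 the shares of LNP-cGAMP, anti-PD-L1, the combination and PBS were 4.42%, 0.0892%, 3.81% and 0.493%. With Saa3 under 50, Cxcl10 in the combination over anti-PD-L1 was 1.46. With at least 1 UMI of Adgre1 required beside Csf1r in the other cells, 25 genes were lower in all 4 libraries. Without cells holding other-type markers 22 were lower and Mgp was 0.26, 0.04, 0.08 and 0.23 in LNP-cGAMP, anti-PD-L1, the combination and PBS. After thinning, the shares in those libraries were 13.2%, 1.57%, 10.1% and 3.09%, and 14 genes were higher in all 4. The numbers higher and lower were then 789 and 538 in LNP-cGAMP over PBS, 681 and 574 in anti-PD-L1 over PBS, 722 and 456 in the combination over PBS, 101 and 86 in the combination over LNP-cGAMP, and 781 and 554 in the combination over anti-PD-L1. Thinning also gave -0.37 for H2-Eb1 and 1.58 for Gpnmb in anti-PD-L1 over PBS, -0.03 for H2-Aa in the combination over LNP-cGAMP and 0.70 for Cxcl10 in the combination over anti-PD-L1. With each cell weighted equally 17 genes were higher and 62 lower in all 4, and Mgp was 0.14 in LNP-cGAMP. With a pseudocount of 1, 12 were higher. With no CPM minimum 60 were lower, and the numbers higher and lower were 1077 and 739, 628 and 735, 867 and 551, 105 and 97, and 1002 and 557 in the 5 comparisons in the order above. A Vcan limit per 10000 UMIs, chosen after seeing the data, gave shares of 8.10% in LNP-cGAMP and 6.74% in the combination. Leaving out the member with most UMIs of a gene, also chosen after seeing the data, gave 0.25 for Ptgr1 in anti-PD-L1 over PBS and 1.35 for Cxcl10 in the combination over anti-PD-L1. The cause of these changes was not tested. A Ccl8 minimum of 40 left under 10 members outside LNP-cGAMP and the combination, and Y-only cells gave only LNP-cGAMP over PBS. The 13 anti-PD-L1 and 21 PBS members limit every comparison with those libraries.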
